A study of Mus musculus with 6 samples.

Results

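Acyl-CoA thioesterases, encoded by the Acot genes, were followed in the renal cortex of mice on a steatohepatitis-inducing diet with and without tofogliflozin, an inhibitor of the sodium-glucose cotransporter SGLT2 of the proximal tubule. The members were taken by symbol, namely Acot1, Acot2, Acot3, Acot4, Acot7, Acot8, Acot12 and Acot13, and all 8 were found among the 24346 genes of each file. The animals were C57BL/6 mice of unstated age and sex. The control group (NASH in the labels, called diet below) received a diet high in fat, cholesterol and bile salt, labelled HF/HC/HS/BA, for 8 weeks. The treated group (NASHTofo, called tofogliflozin below) received the same diet containing tofogliflozin for the same 8 weeks. RNA of 3 samples per group was sequenced, so the diet is common to all 6 libraries, and no standard-diet group was analysed here. The labels do not state that each library is a separate animal, so p-values measure the spread between these samples.

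Acyl-CoA thioesterases hydrolyse acyl-CoA esters to free fatty acid and coenzyme A, and so oppose the acyl-CoA synthetases that activate fatty acids. Type I enzymes, with an alpha/beta-hydrolase fold, include cytosolic Acot1, mitochondrial Acot2 and peroxisomal Acot3 and Acot4, and their genes lie side by side on mouse chromosome 12. Type II enzymes, with hotdog-fold domains, include Acot7, Acot8, Acot12 and Acot13, whose genes are scattered and whose proteins are unrelated to type I in sequence. Several type I genes are known targets of PPARα, the nuclear receptor for fatty acids that the title of the series names, and renal proximal tubule cells draw much of their energy from fatty acids.

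The sequences of the type I members bear on how far their values can be told apart. In the GRCm38 annotation (mm10) Acot2 spans 83987861 to 83993873 on the plus strand of chromosome 12, Acot1 84009490 to 84018371, Acot4 84038379 to 84048601 and Acot3 84052144 to 84060402. Acot1 and Acot2 shared 95.3% of 1236 aligned coding bases, Acot1 and Acot3 83.9% of 1257, and Acot1 and Acot4 76.6% of 1236. Below are 60 bases of coding exon sequence near the middle of each gene, aligned without gaps and printed 5′ to 3′ from the plus strand, where capitals mark letters that differ from Acot1. They lie at chr12:84014519-84014578 (Acot1), chr12:83990634-83990693 (Acot2), chr12:84057049-84057108 (Acot3) and chr12:84041977-84042036 (Acot4).
Acot1: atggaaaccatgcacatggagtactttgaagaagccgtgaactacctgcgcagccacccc
Acot2: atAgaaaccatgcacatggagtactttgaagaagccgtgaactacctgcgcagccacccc
Acot3: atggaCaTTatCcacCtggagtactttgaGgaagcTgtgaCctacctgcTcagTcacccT
Acot4: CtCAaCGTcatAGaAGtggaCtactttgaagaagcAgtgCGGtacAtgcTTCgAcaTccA
In this stretch Acot2 differed from Acot1 at 1 base, Acot3 at 11 and Acot4 at 22. Of all 50-base windows in the annotated transcripts of Acot2, 27.6% also occurred in another of the genes Acot1 to Acot6 or the other members. The share was 18.4% for Acot1, 7.57% for Acot3, 4.17% for Acot4 and 0% for Acot7, Acot8, Acot12 and Acot13. Counting windows shared with any gene, the share was 27.7% for Acot2, 19.2% for Acot1, 19.1% for Acot3 and 4.53% for Acot4. For Acot3 most of the added windows were shared with Gm49366, an overlapping gene for which no value is listed. How reads of those windows were assigned is not stated. A read from such a window cannot be assigned by sequence, so the values of Acot1, Acot2 and Acot3 are uncertain. Acot4 and Acot3 are both overlapped by Gm49366 on the same strand and by 4732463B04Rik on the opposite strand, and whether counting used the strand is not stated.

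None of the 8 members passed the test over all genes, whereas 0.253% of the 12248 tested genes did (limma, adjusted p under 0.05). Acot1, Acot3 and Acot4 each had all 3 tofogliflozin libraries above all 3 diet libraries, which was so for 9.63% of all tested genes. Their unadjusted limma p was under 0.05, as was that of 6.7% of all tested genes in this direction. No member had its tofogliflozin libraries all below the diet libraries, against 8.86% of all tested genes. The median log2 change was 0.23 over the 8 members and -0.0008 over all tested genes. Values are FPKM, fragments scaled by transcript length and sequencing depth, and changes were computed on log2(FPKM + 1), which understates the change of low genes.

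**Figure D1:**
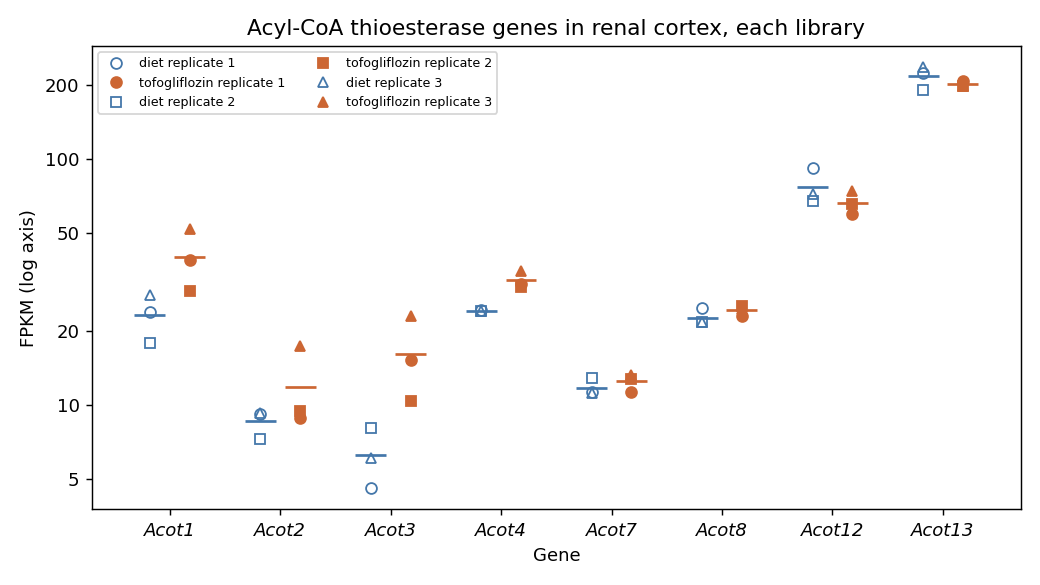
FPKM of each member (log axis) in each library, open blue symbols for diet and filled orange symbols for tofogliflozin, with the symbol shape giving the replicate number and horizontal lines the group means. The orange symbols of Acot1, Acot3 and Acot4 lie above all blue symbols of the same gene, and the groups overlap for the other 5 genes.

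Among the type I members, Acot3, a peroxisomal thioesterase of medium- and long-chain acyl-CoA, was at 4.61, 8.11 and 6.12 FPKM in diet replicates 1, 2 and 3. With tofogliflozin it was at 15.2, 10.4 and 23.1 FPKM. The groups did not overlap, but tofogliflozin replicate 2 was close to diet replicate 2. Its means were 6.28 ± 1.76 and 16.2 ± 6.4 FPKM (SD, n = 3 per group), a ratio of 2.59. The log2 change of Acot3 was 1.20 ± 0.27 (SE; 95% interval 0.58 to 1.83; limma adjusted p = 0.129, unadjusted p = 0.00209) and had the largest size among the members.

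Acot1, the cytosolic long-chain enzyme, was at 23.9, 17.9 and 28.0 FPKM on diet alone, against 39.0, 29.2 and 51.8 FPKM with tofogliflozin. The lowest treated library, replicate 2, was just above the highest diet library, replicate 3. The means were 23.3 ± 5.08 and 40.0 ± 11.3 FPKM (SD, n = 3 per group). The log2 change of Acot1 was 0.74 ± 0.22 (SE; 95% interval 0.24 to 1.24; limma adjusted p = 0.212, unadjusted p = 0.00889).

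Acot4, a peroxisomal enzyme that in mouse hydrolyses succinyl-CoA and other dicarboxylyl-CoA esters, measured 24.4, 24.2 and 24.2 FPKM on diet alone. With tofogliflozin it was at 31.2, 30.3 and 35.1 FPKM. The diet mean was 24.2 ± 0.136 FPKM, a spread smaller than the counting error of about 2.9% estimated below for this gene, and the treated mean was 32.2 ± 2.58 FPKM (SD, n = 3 per group). Acot4 had the smallest p among the members, with a log2 change of 0.39 ± 0.08 (SE; 95% interval 0.22 to 0.57; limma adjusted p = 0.0835, unadjusted p = 0.000859).

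Acot2, the mitochondrial counterpart of Acot1, was at 9.22, 7.32 and 9.28 FPKM on diet alone, against 8.85, 9.50 and 17.4 FPKM with tofogliflozin. Tofogliflozin replicate 3 stood alone, and replicates 1 and 2 lay within or next to the range of the diet libraries. The log2 change of Acot2 was 0.37 ± 0.23 (SE; 95% interval -0.14 to 0.89; limma adjusted p = 0.528). Without tofogliflozin replicate 3 the change was 0.09 (limma adjusted p = 0.891).

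**Figure D2:**
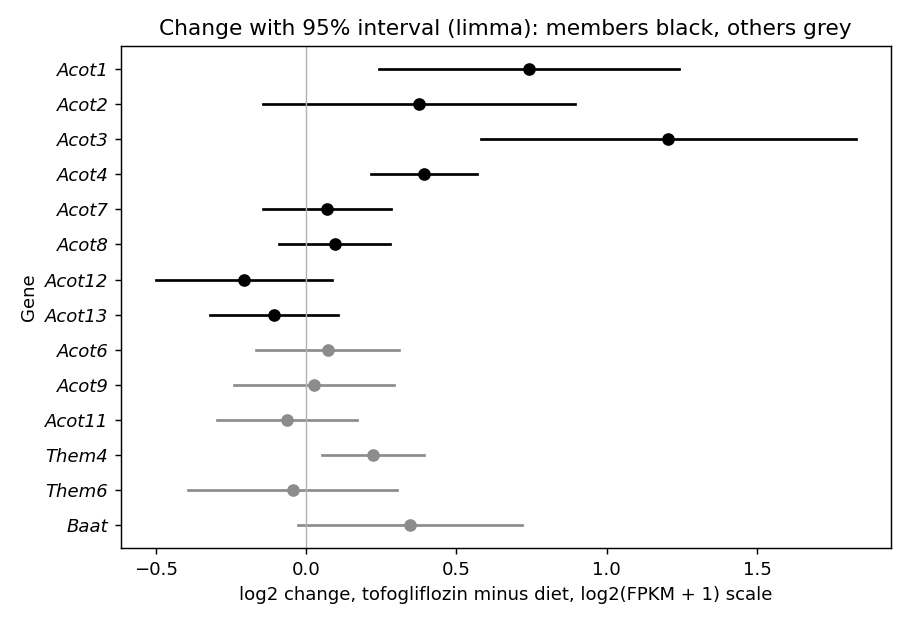
Points are log2 changes, tofogliflozin minus diet, on the log2(FPKM + 1) scale, and lines are limma 95% intervals, black for the 8 members and grey for 6 other tested thioesterase genes. The intervals of Acot1, Acot3, Acot4 and Them4 lie above 0 before adjustment for the number of genes, and those of the remaining genes include 0.

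Tofogliflozin replicate 3 held the highest value of 5 of the 8 members, namely all 4 type I members and Acot7, and also that of Acot6. In the diet group, Acot1, Acot2, Acot4, Acot12 and Acot13 were lowest in replicate 2, though Acot4 was at 24.2 FPKM in replicate 3 too. Replicate 2 was instead the highest diet library of Acot3 and Acot7. After the group means were removed, the correlation over the 6 libraries was 0.92 between Acot2 and Acot4, 0.80 between Acot1 and Acot2, 0.76 between Acot3 and Acot4 and 0.45 between Acot1 and Acot3. Values of this size also occurred outside the type I members, with 0.89 between Acot8 and Acot12 and 0.65 between Acot2 and Acot12. These are descriptions over 6 points that share a scale within each library, and Acot1 and Acot2 also share sequence. Ratios within a library, in which such a scale cancels, were compared for 4 pairs chosen after the values were seen. The ratio of Acot3 to Acot4 was 0.189, 0.336 and 0.253 in the diet libraries and 0.487, 0.344 and 0.658 with tofogliflozin (exact permutation p = 0.1, two-sided, the smallest that 3 against 3 allows; 0.267 after Benjamini-Hochberg adjustment over the 4 pairs). The ratio of Acot1 to Acot2 was 2.59, 2.45 and 3.02 against 4.40, 3.08 and 2.97, and overlapped (exact permutation p = 0.2, adjusted 0.267). The ratios of Acot3 to Acot2 and of Acot1 to Acot4 overlapped too, with exact permutation p = 0.2 and 0.3. This permutation test cannot go below 0.1 with 3 against 3, so it does not settle whether these members differed in their response.

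**Figure D3:**
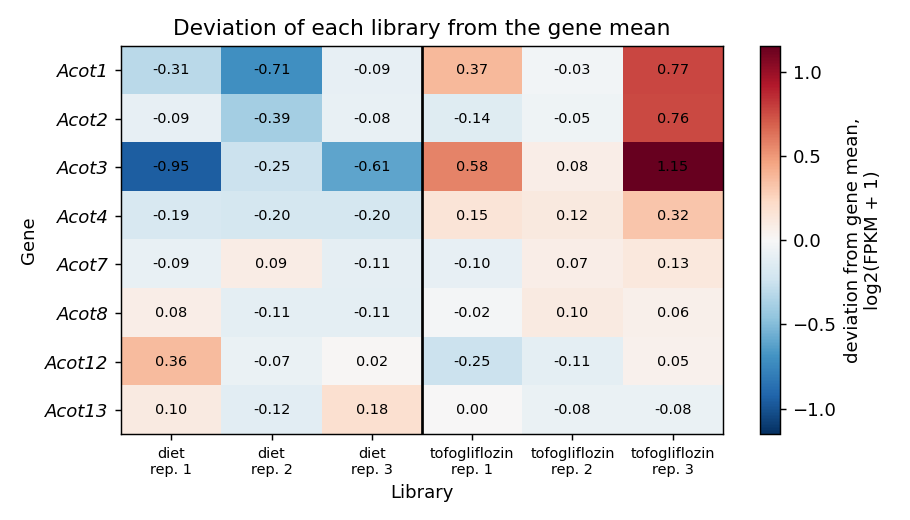
Each cell is the deviation of a library from the mean of that gene over the 6 libraries, on the log2(FPKM + 1) scale, with red above and blue below the mean and a line between the groups. Acot1 to Acot4 have their highest cells in tofogliflozin replicate 3, at 0.77, 0.76, 1.15 and 0.32. The rows of Acot7, Acot8 and Acot13 stay between -0.12 and 0.18, and that of Acot12 runs from -0.246 to 0.365, highest in diet replicate 1.

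The cluster on chromosome 12 holds 2 more thioesterase genes downstream, Acot5 and Acot6, and runs 123.5 kb from the start of Acot2 to the end of Acot6. Acot6, another peroxisomal type I gene, was at 4.70, 4.54 and 4.12 FPKM on diet alone, against 4.75, 4.21 and 5.27 FPKM with tofogliflozin. Its groups overlapped, and its log2 change was 0.07 (95% interval -0.17 to 0.31; limma adjusted p = 0.815). Acot5 was listed at 0 in 5 libraries and at 0.0791 FPKM in tofogliflozin replicate 3, under the filter. Dnal1, a dynein light chain gene next to Acot6 that was picked after its values were seen, was at 3.22 ± 0.354 and 3.48 ± 0.368 FPKM (SD, n = 3 per group; limma adjusted p = 0.793).

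**Figure D4:**
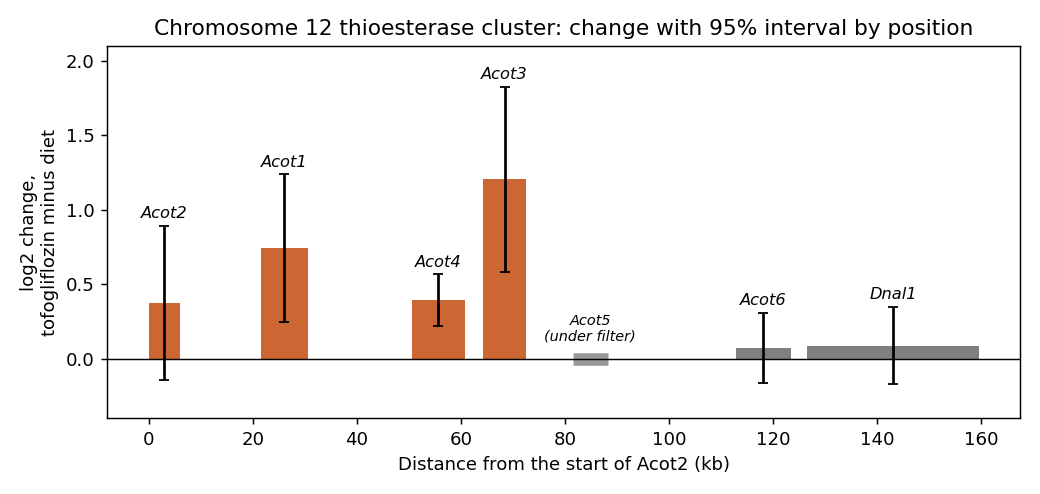
The x axis is the distance in kb from the start of Acot2 and the y axis the log2 change with its limma 95% interval, each bar being as wide as its gene, orange for members and grey for neighbours. The bars of Acot2, Acot1, Acot4 and Acot3 stand at 0.37, 0.74, 0.39 and 1.20 within the first 72.5 kb, and those of Acot6 and Dnal1 at 0.07 and 0.09; Acot5 was under the filter.

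The type II members included the most abundant genes of the family, and in none of them were the groups apart. Acot13, a mitochondria-associated enzyme also known as Them2 that acts on long-chain acyl-CoA, was at 223, 191 and 236 FPKM on diet alone, against 208, 197 and 197 FPKM with tofogliflozin. The treated libraries lay within the diet range, and the log2 change of Acot13 was -0.11 (95% interval -0.32 to 0.11; limma adjusted p = 0.674). Acot12, a cytosolic acetyl-CoA hydrolase, was at 92.0, 67.6 and 72.1 FPKM and at 59.9, 65.8 and 73.8 FPKM. Diet replicate 1 stood highest and the groups overlapped, and the log2 change of Acot12 was -0.21 (95% interval -0.50 to 0.09; limma adjusted p = 0.538). The annotation places 4833422C13Rik on the opposite strand of Acot12.

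Acot8, a peroxisomal enzyme of broad chain-length range, was at 24.8, 21.7 and 21.7 FPKM on diet alone, against 23.1, 25.2 and 24.6 FPKM with tofogliflozin. Its log2 change was 0.09 (95% interval -0.09 to 0.28; limma adjusted p = 0.668), and it overlaps Snx21 on the opposite strand. Acot7, a cytosolic long-chain enzyme best known from brain, was at 11.3, 12.9 and 11.2 FPKM and at 11.3, 12.8 and 13.3 FPKM. The change of Acot7 was 0.07 on the log2 scale (95% interval -0.14 to 0.28; limma adjusted p = 0.797). The intervals of Acot7 and Acot8 overlapped those of Acot1, Acot2 and Acot4 but not that of Acot3. Among the type I members, the intervals of Acot12 and Acot13 overlapped only that of Acot2. A difference between the types was not tested, because genes are not replicates. Acot13 lies on chromosome 13 from 24817948 to 24831540 and Acot12 on the same chromosome from 91741512 to 91786148. Acot8 lies on chromosome 2 from 164792765 to 164804882 and Acot7 on chromosome 4 from 152178134 to 152271855.

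FPKM is per length, so the listed levels of the members can be ordered. The places of Acot1, Acot2 and Acot3 rest on values that shared sequence leaves uncertain, as said above. In the diet group Acot13 was first at a mean of 217 FPKM and Acot12 second at 77.2, and the ranges of these genes did not overlap with each other or with the third. Acot4, Acot1 and Acot8 followed at 24.2, 23.3 and 22.7 FPKM and could not be separated. Acot7 at 11.8 came next, above Acot2 at 8.60 and Acot3 at 6.28 FPKM, which overlapped. With tofogliflozin the order ran Acot13 at 201, Acot12 at 66.5, Acot1 at 40.0, Acot4 at 32.2, Acot8 at 24.3, Acot3 at 16.2, Acot7 at 12.5 and Acot2 at 11.9 FPKM. In that group the ranges of Acot1 and Acot4 overlapped, as did those of Acot8 and Acot3, of Acot3 and Acot7, and of Acot7 and Acot2.

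The summed FPKM of the 8 members was 414, 351 and 409 in the diet libraries and 397, 380 and 436 with tofogliflozin, so the totals overlapped. Acot13 made up 54.0%, 54.5% and 57.8% of that sum in the diet libraries and 52.5%, 51.8% and 45.2% with tofogliflozin. Acot1 to Acot4 together made up 15.0%, 16.4% and 16.5% in the diet libraries and 23.7%, 20.9% and 29.2% with tofogliflozin. The groups did not overlap in that share, and the difference of means, 8.65 percentage points, was 6.34 without tofogliflozin replicate 3.

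**Figure D5:**
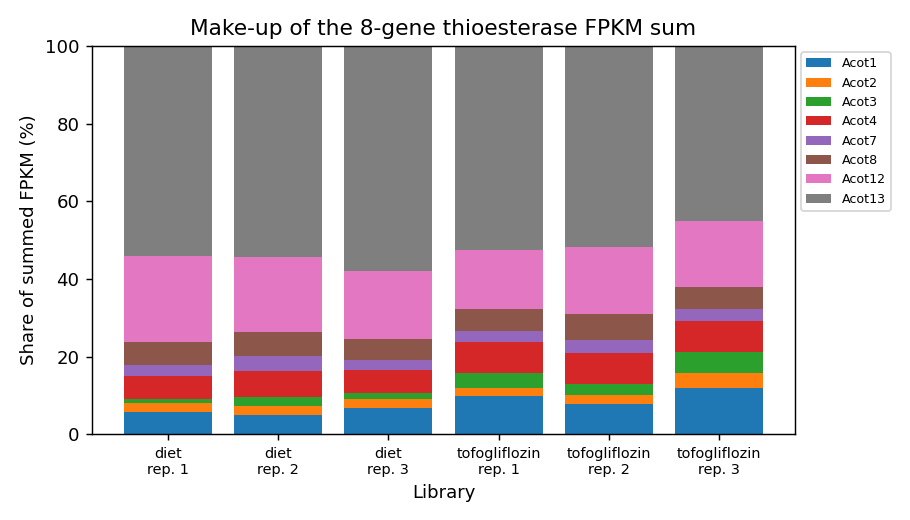
Stacked bars give the percent of the summed FPKM of the 8 members that each gene takes in each library. The lower 4 segments, Acot1 to Acot4, reach 15.0% to 16.5% in the diet libraries and 20.9% to 29.2% with tofogliflozin, and the top segment, Acot13, is the tallest in each bar.

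Promoters are shown for the 3 members whose groups were apart and for Acot12, the other member with a match to the motif below. PPARα binds DNA with its partner RXR at direct repeats of AGGTCA spaced by a single base, a motif that other nuclear receptors also bind. The 250 bases before each RefSeq start (GRCm38.p6) were searched on both strands for AGGTCANAGGTCA with up to 2 mismatches and for the 6-base repeat unit AGGTCA without mismatch, which can lie within the former. A start was listed for 7 of the 8 members. Matches are in capitals, and each sequence runs 5′ to 3′ on the plus strand, at chr12:84009252-84009501 (Acot1), chr12:84051894-84052143 (Acot3, the first of its listed starts), chr12:84038129-84038378 (Acot4) and chr13:91741271-91741520 (Acot12).
Acot1: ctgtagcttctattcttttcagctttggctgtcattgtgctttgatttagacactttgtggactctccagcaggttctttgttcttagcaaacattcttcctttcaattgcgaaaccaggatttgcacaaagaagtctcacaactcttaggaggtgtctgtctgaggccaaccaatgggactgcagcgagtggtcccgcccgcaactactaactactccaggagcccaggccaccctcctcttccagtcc
Acot3: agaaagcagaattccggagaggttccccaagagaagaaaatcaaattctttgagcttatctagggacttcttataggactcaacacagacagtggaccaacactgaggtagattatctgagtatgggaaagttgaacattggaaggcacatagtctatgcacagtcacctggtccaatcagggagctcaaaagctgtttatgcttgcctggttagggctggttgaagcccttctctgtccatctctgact
Acot4: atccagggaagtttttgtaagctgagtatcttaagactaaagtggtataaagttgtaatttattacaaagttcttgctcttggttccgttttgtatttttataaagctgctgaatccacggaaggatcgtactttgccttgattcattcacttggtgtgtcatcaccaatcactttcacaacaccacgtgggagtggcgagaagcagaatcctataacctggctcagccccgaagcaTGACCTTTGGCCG
Acot12: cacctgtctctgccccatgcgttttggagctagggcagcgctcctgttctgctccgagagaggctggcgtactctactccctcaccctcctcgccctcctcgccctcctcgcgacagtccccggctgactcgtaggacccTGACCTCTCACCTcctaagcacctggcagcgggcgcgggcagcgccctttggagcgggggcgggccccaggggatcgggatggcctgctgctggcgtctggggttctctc
Acot4 held TGACCTTTGGCCG, a match on the opposite strand with 2 mismatches that ends at the last base before the start. Acot12, whose values overlapped between the groups, held TGACCTCTCACCT, also on the opposite strand, with 1 mismatch. Of 32817 promoter windows of this length, 3.23% held the 13-base motif at this stringency and 14.0% the exact unit. In Acot1 and Acot3, and in the windows of Acot2, Acot7 and Acot8 that are not shown, these letters were not found.

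Fixed lists of genes around the thioesterases place the members among related steps, and in none of the lists did a gene pass over all genes tested (0 in each). Counts at an unadjusted limma p under 0.05 are to be read beside all tested genes, of which 6.7% were higher and 6.39% lower at that p. Of the 9 other thioesterase and related genes, 6 were tested, 4 with a change above 0, with a median log2 change of 0.05. Them4, a mitochondrial long-chain thioesterase, was at 15.5, 14.1 and 14.9 FPKM on diet alone, against 16.6, 18.1 and 17.8 FPKM with tofogliflozin. Its groups did not overlap, and the log2 change of Them4 was 0.22 ± 0.07 (SE; limma adjusted p = 0.253). Baat, the bile acid amino acid N-acyltransferase related to type I enzymes, was at 0.672, 1.27 and 0.926 FPKM and at 1.25, 1.39 and 1.79 FPKM. Acot9, a mitochondrial enzyme, was at 39.3 ± 5.61 and 39.9 ± 4.01 FPKM, and Acot11, also called Them1, at 23.4 ± 2.88 and 22.3 ± 1.38 FPKM (SD, n = 3 per group). Them6 was at 9.66 ± 1.71 and 9.35 ± 1.74 FPKM. Acot10 was listed at 0 in all libraries, and Them5 was at 0.223 FPKM or less.

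Of 17 tested acyl-CoA synthetases, which run the opposite reaction, 8 had a change above 0 and the median log2 change was -0.03. Before adjustment, 4 had a limma p under 0.05 above 0 and 2 below. Acsl1, the main long-chain synthetase of oxidative tissues, was at 66.7, 65.0 and 81.4 FPKM on diet alone, against 107, 83.3 and 134 FPKM with tofogliflozin. Tofogliflozin replicate 3 was the highest and replicate 2 the lowest treated library, as for Acot1 and Acot3, and the groups did not overlap (limma adjusted p = 0.208). Acsl3 was at 8.10 ± 0.630 and 11.2 ± 1.61 FPKM, and Slc27a1, a fatty acid transport protein with synthetase activity, at 28.9 ± 3.22 and 37.3 ± 4.35 FPKM (SD, n = 3 per group). Acsl1, Acsl3 and Slc27a1 are named because their p was the smallest in the list. The 2 genes lower before adjustment are not among them.

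Thioesterases release coenzyme A, and of 18 tested genes of its synthesis, transport and breakdown 11 had a change above 0 (median 0.05; limma p under 0.05 before adjustment for 3 above and 2 below 0). Slc25a42, the mitochondrial carrier of coenzyme A, was at 75.2, 65.6 and 71.6 FPKM on diet alone, against 87.7, 104 and 115 FPKM with tofogliflozin, without overlap (limma adjusted p = 0.10). Vnn1, a pantetheinase, was at 48.3 ± 7.70 and 73.3 ± 14.9 FPKM. Nudt19, a peroxisomal coenzyme A hydrolase that is abundant in kidney, lay the other way, at 696, 576 and 649 FPKM against 459, 531 and 509 FPKM (limma adjusted p = 0.205). In the list of carnitine and acyl-CoA transport, 16 genes were tested, 10 of them above 0 (median 0.08; 2 higher and 1 lower at an unadjusted p). Slc25a20, the carnitine-acylcarnitine carrier, was at 29.1 ± 3.32 and 43.2 ± 9.37 FPKM, and Crot, the peroxisomal octanoyltransferase, at 162 ± 16.1 and 125 ± 10.6 FPKM, both without overlap of the groups. Bbox1, of carnitine synthesis, was at 0.742 ± 0.298 and 2.05 ± 0.965 FPKM (SD, n = 3 per group). It was under 1 FPKM in all 3 diet libraries, so it passed the filter of 1 FPKM only through the tofogliflozin group. Bbox1 is among the 2 higher genes of that list, and its place there is no independent support for a direction.

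Of 26 tested PPARα target genes other than the members, 23 had a change above 0 (median 0.19). The limma p before adjustment was under 0.05 for 12 above and 0 below 0, against 6.7% and 6.39% of all tested genes. The smallest limma adjusted p in that list was 0.055, for Acaa1b. The list was drawn up with earlier results of these data known and is no independent evidence of direction. Tofogliflozin replicate 3, the highest library for Acot1 to Acot4, was also the highest for Acaa1b at 198 FPKM, Angptl4 at 140 FPKM and Txnip at 329 FPKM. These 3 are named for the smallest p in the list. That library was also the highest for genes outside the list, such as Slc25a42 at 115 FPKM and Vnn1 at 89.1 FPKM, though not for Them4. The share of all genes with their highest value there was not counted.

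The genes whose pattern over the 6 libraries was most like that of a member, by Pearson correlation on log2(FPKM + 1), were picked by a fixed rule of 2 per member. For Acot4 they were Fmo2 (r = 0.997) and Papss2 (r = 0.995), at 141 ± 3.50 and 194 ± 16.1 FPKM and at 87.8 ± 2.27 and 130 ± 16.5 FPKM (SD, n = 3 per group). For Acot3 they were Kynu (r = 0.992) and Dsg2 (r = 0.992). Kynu, the kynureninase gene of tryptophan breakdown, was at 2.34, 4.76 and 3.70 FPKM on diet alone, against 16.6, 9.80 and 26.7 FPKM with tofogliflozin, so replicate 2 was the highest in the diet group and the lowest in the treated group, as in Acot3. For Acot1 they were Fam21 and Utp14a and for Acot2 Tspyl1 and Bcl2l13, with r from 0.988 to 0.993. For Acot7 they were Dicer1 and Atp11b, for Acot8 Ttc27 and Angptl7, for Acot12 Chmp6 and Mettl16, and for Acot13 Ihh and Zcchc3. With 12248 genes and 6 libraries, correlations of this size are a description of these libraries only.

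In bulk tissue, fewer cells of a type and less RNA per cell cannot be told apart. All 15 proximal tubule markers reached 1 FPKM in at least 1 library, with summed levels of 9620 to 11800 FPKM in the diet libraries and 9570 to 10900 FPKM with tofogliflozin. Markers of the late (S3) segment of the proximal tubule summed to 3640 to 4930 FPKM against 2570 to 3430 FPKM, and 6 of 10 were lower at an unadjusted limma p under 0.05, where 6.39% of all tested genes were. Of these 10 markers 7 had a change below 0 and 3 above. Distal tubule and collecting duct markers summed to 690 to 785 against 857 to 921 FPKM, and all 12 had a change above 0. Of these, 6 had an unadjusted limma p under 0.05, where 6.7% of all tested genes were higher at that p. Macrophage and lymphocyte markers ranged from 116 to 305 FPKM in the diet libraries and from 97.9 to 146 FPKM with tofogliflozin. Of the 9 tested, 8 had a change below 0 (median log2 change -0.41), 2 of them with an unadjusted limma p under 0.05. Their highest sum was in diet replicate 2. Of the 6 libraries, Acot1, Acot2, Acot4 and Acot13 were lowest in that library, and Acot12 was lowest there within the diet group. For Acot4 this was a near tie, at 24.2 FPKM in diet replicate 3 too. Acot3 and Acot7 went the other way, with their highest diet values in that library, at 8.11 and 12.9 FPKM. Sums of the other lists overlapped between the groups. They ran from 2250 to 2930 and from 2450 to 2630 FPKM for the thick ascending limb, from 264 to 270 and from 254 to 291 FPKM for podocytes and endothelium, from 21.7 to 26.3 and from 15.1 to 31.3 FPKM for fibroblasts, and from 1200 to 1830 and from 1270 to 1410 FPKM for hepatocyte markers. Of 10 hepatocyte markers 8 were tested, of which 4 had a change above 0 and 4 below, and the 4 above 0 had an unadjusted limma p under 0.05. Of 10 adipocyte markers 7 were under 1 FPKM in every library, with Lep listed at 0 and Adipoq and Plin1 among the 7 (these 3 were named after their values were seen), and the list summed to 12.2 to 21.2 and 13.3 to 17.7 FPKM. The part of these marker differences in the values of Acot1, Acot3 and Acot4 was not tested.

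The files hold no counts, but the spacing of the lowest values gave an estimated 7800000 to 10000000 fragments for each library. By that estimate and the length of the transcript with its longest coding sequence, Acot3 rested on about 120 to 690 fragments, Acot2 on 130 to 330, Acot1 on 320 to 1000 and Acot4 on 1200 to 1900. The counting error at the lowest of these was about 9.0% for Acot3 and 2.9% for Acot4 (counting error only, from an estimated depth). The SD of the diet libraries was 28.0% of the mean for Acot3 and 0.559% for Acot4, the latter below the counting error estimated for that gene.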

How the data were processed

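Per the labels' protocols, RNA came from a column kit and a stranded mRNA kit was used for the libraries. The authors deposited FPKM values for 24346 genes in each of 6 libraries. The submitters' processing notes name TopHat2 2.1.1, Bowtie2 2.2.8, SAMtools 0.1.18, Cuffdiff 2.2.1 and mm10; their roles, the annotation and any between-library scaling are not stated. The 12248 genes that reached 1 FPKM in 3 or more libraries, all 8 members among them, were compared on log2(FPKM + 1) with limma 3.58.1 in R 4.3.3, a moderated two-sided test with a mean-variance trend, and adjusted by the Benjamini-Hochberg method over all tested genes at a threshold of 0.05. The fit was tested on simulated data. Groups and replicate numbers came from the sample titles. Coding sequences were aligned with Biopython 1.88 from GENCODE transcripts of GRCm38, and promoters are from RefSeq (GRCm38.p6). Plots used Python 3.11.15 and matplotlib 3.10.9. Depth was estimated from values under 0.2 FPKM of genes with a single annotated transcript.

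Named were the 8 members, all other listed thioesterases, up to 3 genes of smallest p from each pathway list and the 2 genes most correlated with each member. Genes that overlap a member in the annotation were named without values. Any other gene is said to be chosen after its values were seen. The PPARα target list leaves out the members. The members and lists were chosen with earlier results of these data known. The labels do not say that the replicate numbers pair animals. Same-numbered libraries did not deviate together (correlations of -0.055, -0.062 and 0.051). Deviations from means of 3 libraries cannot settle this, and the main fit took no pairing. The alternatives were another pseudocount (0.1), no filter, a filter of 5 FPKM, upper-quartile scaling, quantile normalization, a replicate block, no trend, array weights and leaving out each library.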

Additional observations from a re-analysis of the deposited data

How the results depend on the processing

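All 8 members kept the sign of their change in each of 14 other settings, and Acot1, Acot3 and Acot4 kept an unadjusted limma p under 0.05 in all 14. Their log2 changes ran from 0.54 to 0.94, from 0.93 to 1.47 and from 0.33 to 0.43. The range of limma adjusted p was 0.059 to 0.349 for Acot3 and 0.0588 to 0.319 for Acot4. Acot1 passed in 1 setting, with the replicate number as a block, at a log2 change of 0.74 and a limma adjusted p of 0.047 (otherwise up to 0.521). The labels do not say whether the numbers pair the samples. This block changed no other member's call and gave 26 genes against 31. With a library left out, the changes ran from 0.54 to 0.94 for Acot1, 0.09 to 0.54 for Acot2, 0.93 to 1.47 for Acot3, 0.33 to 0.43 for Acot4, 0.02 to 0.14 for Acot7, 0.06 to 0.16 for Acot8, -0.29 to -0.07 for Acot12 and -0.19 to -0.04 for Acot13. The number of genes past the threshold, 31, was 1 with no filter, 20 with a filter of 5 FPKM, 47 with upper-quartile scaling and 123 with array weights. It was 9, 66 and 57 without diet replicate 1, 2 and 3, and 4, 18 and 2 without tofogliflozin replicate 1, 2 and 3. The filters also changed the number of genes tested. The cause of these shifts was not tested. The share of Acot1 to Acot4 in the summed FPKM was higher with tofogliflozin by 6.34 to 10.5 percentage points when a library was left out.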
